A study of Mus musculus with 8 samples.

Results

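The nuclear-encoded subunits of mitochondrial complexes II to V were compared between voglibose and water in mouse ileum. Members were the genes whose platform symbol was Sdha, Sdhb, Sdhc, Sdhd or Cyc1 or began with Uqcr, Cox4 to Cox8 or Atp5. The rule gave 48 of 19505 named genes, 4 in complex II, 9 in complex III, 18 in complex IV and 17 in complex V, each with 1 probe set. Cox7a2l, which joins complexes III and IV into supercomplexes, entered through its symbol and is counted with complex IV. The animals were male KKAy mice, a strain with the yellow agouti allele that becomes obese and diabetic, labelled as 14 weeks old and 30 g. Fat supplied 45% of the energy of their feed. Once 4 weeks of this feed had passed, gavage of voglibose (1 mg/kg) or of water was given every day over 8 weeks. Voglibose is a drug that blocks alpha-glucosidases, the brush-border enzymes that release glucose from starch and sugars. Each group held 4 mice, with 1 Affymetrix array per mouse made from about 4 cm of ileum. The control mice share the strain and the fatty diet.

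Oxidative phosphorylation passes electrons along complexes in the inner mitochondrial membrane and uses the proton gradient that results to make ATP. Complex II oxidizes succinate, complex III passes electrons from ubiquinol to cytochrome c, complex IV reduces oxygen, and complex V is the ATP synthase. In complexes III to V, catalytic or core subunits are joined by many small accessory proteins that serve assembly, stability and dimer formation. The absorptive cells of the small intestine are rich in mitochondria. A whole piece of ileum mixes the epithelium with muscle, lymphoid and stromal cells, and fewer cells of a type cannot be told apart from less RNA per cell.

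Array medians lay between 5.89 and 5.94 (log2 signal), and any pair of arrays correlated at 0.982 to 0.994. The enterocyte markers (Vil1, Alpi, Fabp2, Apoa1, Apoa4, Sis, Mttp and Cdhr5) averaged between 17.43 and 17.70 in every mouse. Of the distal ileal markers, the bile acid binding protein Fabp6 was 8.51, 17.50, 14.11 and 4.01 in water mice 1 to 4 and 8.14, 3.54, 10.78 and 11.68 in voglibose mice 1 to 4. Water mouse 4 and voglibose mouse 2 thus had Fabp6 below the lower quartile of every array (4.05 to 4.18 log2 units), and the pieces of ileum differ in this regional marker within both groups.

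Voglibose mice had lower mean signal for 36 of the 48 subunits and higher for 12, where 50.9% of all probe sets and 57.1% of the bright ones were lower. Bright here means a mean log2 signal above 10. No subunit passed the test over all 22206 probe sets (limma, smallest Benjamini-Hochberg adjusted p = 0.652). At an unadjusted p under 0.05 there were 15 subunits, all 15 with lower signal under voglibose, which is 31.2% of the members where 4.44% of all probe sets were called in that direction. Their signal was 19.9% to 38.5% lower on the linear scale. In 14 members the highest voglibose mouse lay below the lowest water mouse, and 12 of these were among the 15. Of all probe sets, 2.53% had groups that did not overlap in this direction. Of the 38 bright members, 13 were called and lower, beside 7.97% of the 4353 probe sets above that signal, and 13 did not overlap, beside 4.89%. The median difference was -0.21 over the members, -0.005 over all probe sets and -0.045 over the bright ones. Leaving out water mouse 4 moved the median of the members to -0.10, with 30 of 48 lower, leaving out voglibose mouse 1 moved it to -0.14, and leaving out both to -0.05.

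Of the 15 subunits, 9 were small accessory subunits of complex III or small membrane subunits of complex V. These role groups hold 10 members, and all 10 were lower, with a median difference of -0.47. The c subunits and Atp5e of complex V were placed in other role groups, and they differed by 0.08 (Atp5g1), -0.15 (Atp5g2), -0.07 (Atp5g3) and -0.24 (Atp5e). Complex IV members were not sorted into small and core subunits. Of its 10 general forms, 8 were lower and 2 higher, and 4 were called lower, with a median of -0.21. Among the 9 core subunits of complex III and of the catalytic F1 part of complex V, 0 had a p under 0.05, and 6 were lower and 3 higher, with a median of -0.09. The values of this core group moved with single mice. All 9 were lower without water mouse 2 (median -0.25) or voglibose mouse 2 (-0.20), 4 were lower without water mouse 4 (0.008), and leaving out water mouse 1 or 3 gave medians of -0.16 and -0.0025. Of the voglibose mice, leaving out mouse 3 gave -0.04 and mouse 4 gave -0.02, with 1 core member then called. The 10 small members stayed lower in each of these fits, with medians from -0.54 to -0.36 and 4 to 9 called. These role groups were drawn up from textbook knowledge after the values were seen, so the contrast is a description and was not tested. Voglibose mouse 1 was the lowest of the 8 mice in all 15 called members, and water mouse 4 was the highest in 14 of them. The count of 15 was 5 without voglibose mouse 1, 8 without water mouse 4 and 3 without both, while all 15 stayed lower under voglibose each time. The share of all probe sets called and lower was then 2.43%, 3.63% and 2.23%. Uqcrb, Uqcrh, Uqcr11, Cox7b and Cox7c had a p over 0.05 in other single leave-outs too.

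**Figure D1:**
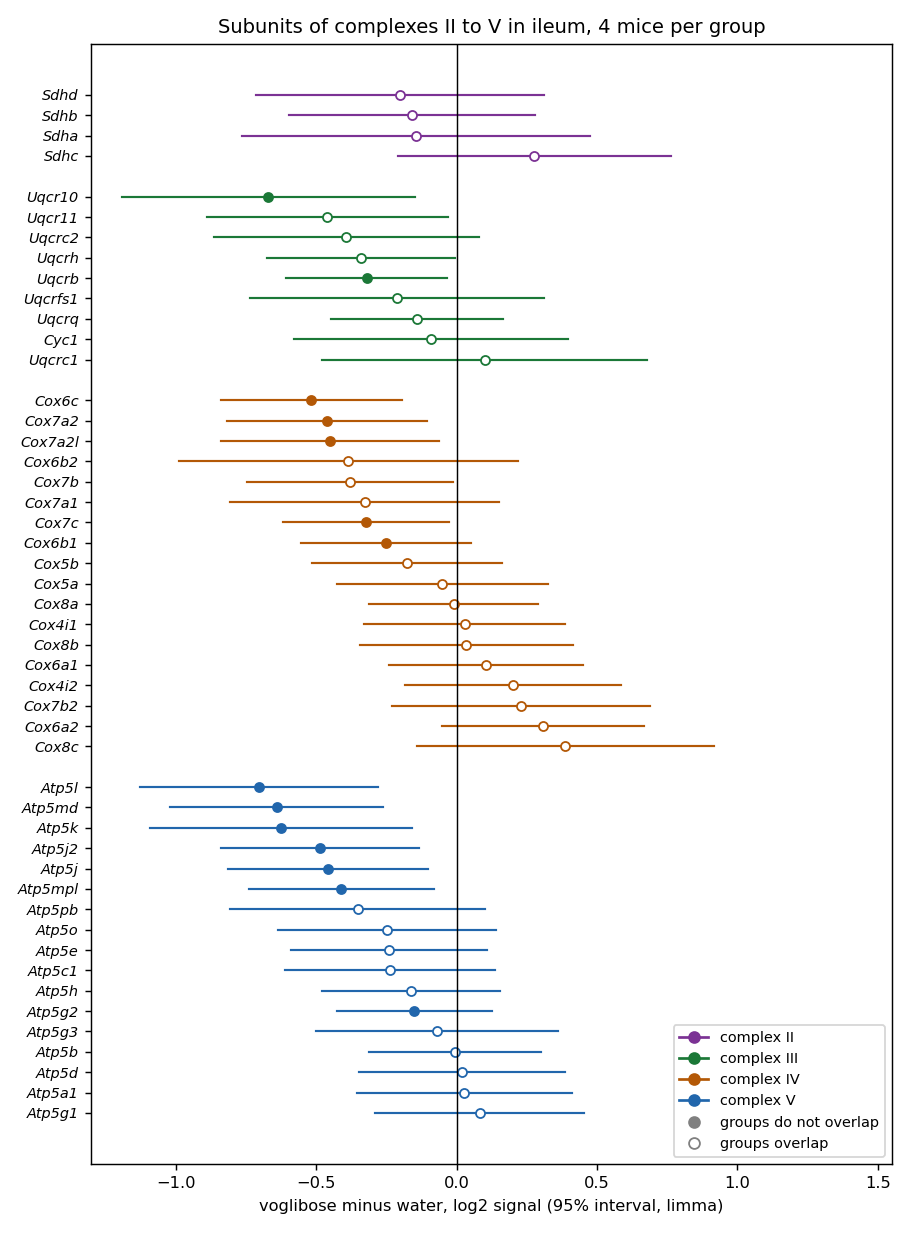
Difference between voglibose and water mice for each of the 48 subunits, in log2 signal with the 95% interval from limma (4 mice per group), coloured by complex and ordered by difference. Filled points mark the 14 members whose groups did not overlap, and these lie left of 0 in complexes III, IV and V.

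**Figure D2:**
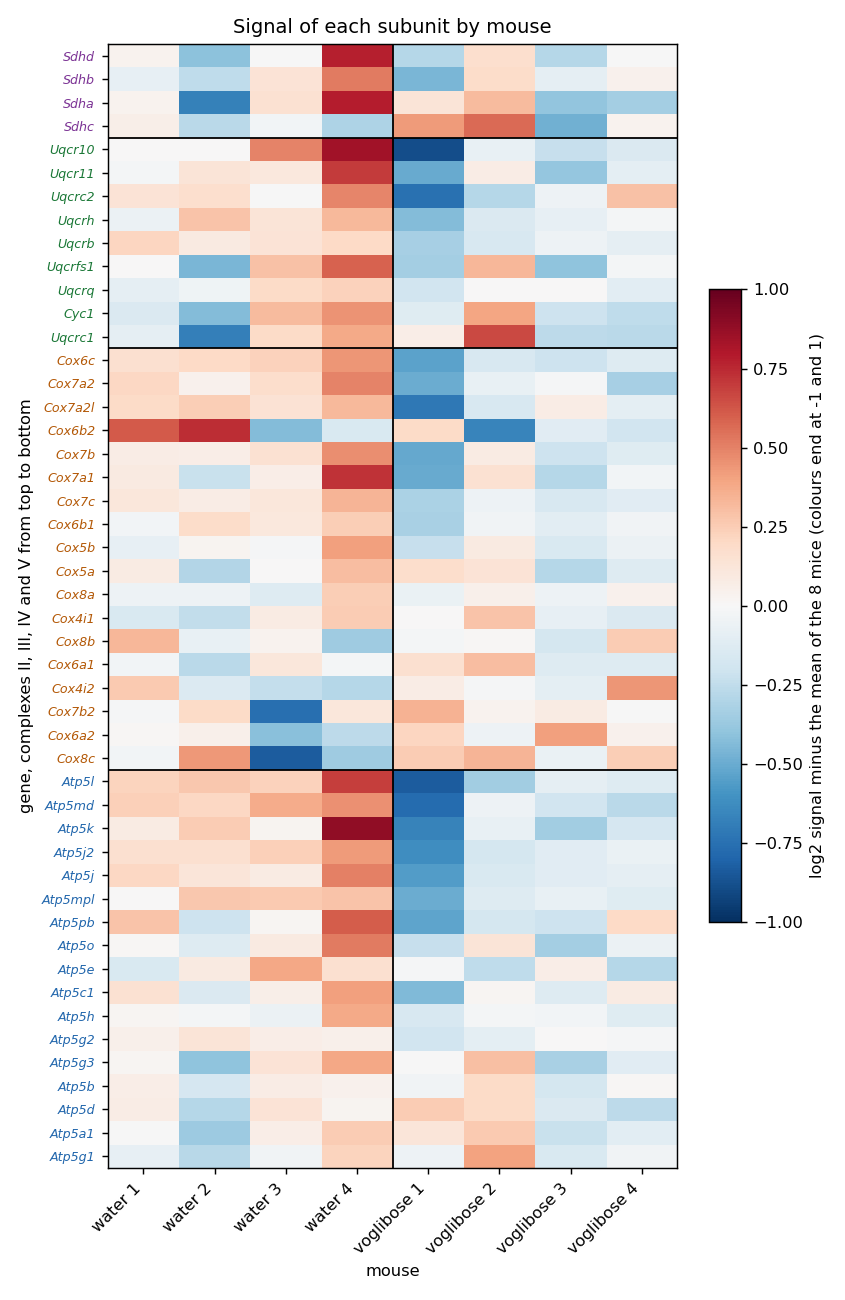
Log2 signal of each subunit in each mouse minus the mean of its 8 mice, with red above and blue below that mean. Water mouse 4 is red in most rows and voglibose mouse 1 is blue in most rows, and water mouse 2 is blue in many of the core subunits.

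Promoters were examined because many members shared their order of mice. RefSeq windows (GRCm38.p6) from 250 bases before to 50 bases after the gene start were found for 36 of the 48 members. Nuclear respiratory factor 1 (NRF1) and ETS factors such as GABP are known regulators of these genes. The palindromic NRF1 motif, whose letters are the longest capitals in the sequences shown here, was searched on both strands and was present in 27.8% of the 36 members and in 5.19% of the 27025 genes with a window. The ETS letters CCGGAAG were present in 36.1% of members and 9.93% of all genes. Among the 11 members with a window whose groups did not overlap, 2 held the NRF1 letters and 5 the ETS letters, and among the other 25 members 8 held each. A long form of the YY1 motif was found in 0 of the 36, and in 0.755% of all genes. The estrogen-related receptor letters TCAAGGTCA were found in 2 members (5.56%) and in 0.466% of all genes. CCAAT, which is short and common, was found in 55.6% of members and 41.1% of all genes. These are matches of letters, not measured sites. The shares over all genes were not matched to the members for signal or base content.

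The 250 bases before the start are shown for 2 subunits with lower signal under voglibose, Atp5k (chr5:108434400-108434649) and Atp5l (chr9:44920743-44920992), and 2 whose groups overlapped widely, Cox6a1 (chr5:115348959-115349208) and Sdha (chr13:74350241-74350490). All are minus-strand genes written 5′ to 3′ on their own strand, with NRF1 and ETS matches in capitals. The NRF1 matches begin 50 bases before the start in Atp5k, 162 and 117 in Cox6a1, and 98, 55 and 10 in Sdha. ETS matches begin at 212 in Atp5l and 16 in Cox6a1.
Atp5k: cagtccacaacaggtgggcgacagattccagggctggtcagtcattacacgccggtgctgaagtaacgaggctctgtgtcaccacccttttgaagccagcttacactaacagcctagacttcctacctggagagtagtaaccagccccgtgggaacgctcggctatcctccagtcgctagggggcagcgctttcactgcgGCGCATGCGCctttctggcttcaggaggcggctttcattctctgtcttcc
Atp5l: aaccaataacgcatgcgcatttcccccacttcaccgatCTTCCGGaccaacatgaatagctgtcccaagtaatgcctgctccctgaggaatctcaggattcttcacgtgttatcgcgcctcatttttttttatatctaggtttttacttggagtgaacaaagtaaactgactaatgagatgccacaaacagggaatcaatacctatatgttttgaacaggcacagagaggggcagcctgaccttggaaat
Cox6a1: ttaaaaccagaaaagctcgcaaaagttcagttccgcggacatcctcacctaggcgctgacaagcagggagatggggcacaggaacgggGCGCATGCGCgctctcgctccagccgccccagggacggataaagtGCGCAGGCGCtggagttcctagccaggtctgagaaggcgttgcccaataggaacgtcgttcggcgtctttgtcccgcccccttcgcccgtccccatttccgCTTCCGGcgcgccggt
Sdha: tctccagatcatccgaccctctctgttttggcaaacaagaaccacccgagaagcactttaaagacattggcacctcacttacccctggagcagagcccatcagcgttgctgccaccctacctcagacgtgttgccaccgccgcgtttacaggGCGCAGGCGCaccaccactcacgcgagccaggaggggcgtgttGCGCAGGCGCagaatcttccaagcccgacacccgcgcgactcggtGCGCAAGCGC
NRF1 letters thus stand before both a subunit with lower signal and subunits whose groups overlapped.

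Complex II, succinate dehydrogenase, has only 4 subunits and showed no difference beyond the spread between mice. Sdha, the flavoprotein that oxidizes succinate, had 8.62, 7.91, 8.74 and 9.37 in water mice 1 to 4 and 8.72, 8.90, 8.19 and 8.25 in voglibose mice. The groups overlapped over most of their range, and the difference was -0.145 with a 95% interval from -0.77 to 0.48. Sdhb, the iron-sulfur subunit, had 14.40, 14.23, 14.62 and 15.00 in water mice against 14.03, 14.67, 14.39 and 14.53 in voglibose mice (difference -0.16 ± 0.20, SE). The membrane anchors bind ubiquinone. Sdhd had 15.10, 14.65, 15.06 and 15.84 in water mice against 14.78, 15.23, 14.78 and 15.06 in voglibose mice (-0.20 ± 0.23). Sdhc was the only higher member, at 11.90, 11.57, 11.81 and 11.53 in water mice against 12.27, 12.41, 11.36 and 11.88 in voglibose mice (0.28 ± 0.22). In Sdha and Sdhd water mouse 4 was the highest and water mouse 2 the lowest, so the range lay inside the control group. The median of the 4 differences was -0.15, and it was 0.06 without water mouse 4, -0.09 without voglibose mouse 1 and -0.32 without water mouse 2. Limma's adjusted p ran from 0.811 to 0.933, and Sdhc had an unadjusted p under 0.05, with higher signal under voglibose, only when voglibose mouse 3 was left out.

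In complex III, 8 of 9 subunits had lower signal under voglibose, with a median difference of -0.32. The 4 called at an unadjusted p under 0.05 were small accessory subunits. They are 44.4% of its members, beside 4.44% of all probe sets and 7.97% of the bright ones. Uqcr10, the subunit with the largest difference, was 12.13, 12.13, 12.62 and 12.97 in water mice and 11.24, 12.05, 11.90 and 11.98 in voglibose mice. All 4 voglibose mice lay below all water mice, by a margin of 0.08, and mouse 1 lay furthest below. The difference was -0.67 ± 0.24 (SE; limma adjusted p = 0.652), or 37.1% lower signal, and -0.49 without voglibose mouse 1. Uqcrb, known as a ubiquinone-binding subunit, was 17.80, 17.67, 17.72 and 17.78 in water mice against 17.25, 17.42, 17.53 and 17.49 in voglibose mice. These groups were tight and separate, with SDs of 0.06 and 0.12 (n = 4), and differed by -0.32 ± 0.13 (limma adjusted p = 0.658).

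Uqcr11, the smallest subunit, was 8.75, 8.90, 8.87 and 9.47 in water mice and 8.26, 8.84, 8.38 and 8.67 in voglibose mice. Voglibose mouse 2 lay within the water range (difference -0.46 ± 0.20, SE). Uqcrh, the hinge protein that contacts cytochrome c1, had 16.40, 16.75, 16.59 and 16.79 in water mice against 16.03, 16.32, 16.38 and 16.44 in voglibose mice. Only voglibose mouse 4 reached above the lowest water mouse (-0.34 ± 0.15). Uqcrq was 13.45, 13.50, 13.73 and 13.77 in water mice against 13.35, 13.55, 13.55 and 13.44 in voglibose mice (-0.14 ± 0.14), and its groups overlapped. Without water mouse 4, and likewise without voglibose mouse 1, 0 of the 5 small subunits kept a p under 0.05, with median differences of -0.30 and -0.26 against -0.34 over all mice.

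The catalytic and core subunits of complex III overlapped between the groups. Uqcrc2, a core protein, was 12.62, 12.65, 12.48 and 12.97 in water mice and 11.74, 12.20, 12.43 and 12.78 in voglibose mice (-0.39 ± 0.21). Its partner Uqcrc1 averaged 12.12 ± 0.46 with water against 12.22 ± 0.44 with voglibose (SD, n = 4) and differed by 0.10 with an interval from -0.48 to 0.68. Cytochrome c1 (Cyc1) differed by -0.09 ± 0.22 and the Rieske iron-sulfur protein (Uqcrfs1) by -0.21 ± 0.24. Uqcrc1, Cyc1 and Uqcrfs1 were lowest in water mouse 2. Voglibose mouse 2 and water mouse 4, with the lowest Fabp6, were the highest mice of all 3. Averaged over the 4 core subunits, the deviation from the 8-mouse mean was 0.48 in water mouse 4, 0.28 in voglibose mouse 2 and -0.35 in water mouse 2. The part of the intestinal region in these values was not tested.

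Complex IV, cytochrome c oxidase, takes its catalytic subunits from mitochondrial DNA, and the members here are the nuclear subunits around them. Of all 18 members, 11 were lower under voglibose and 5 were called lower (27.8%, beside 4.44% of all probe sets). The median difference was -0.11, and -0.05 without Cox7a2l. Of the 10 forms found in most tissues, 8 were lower under voglibose, with a median difference of -0.21. An unadjusted p under 0.05 was found for 4 (40%, beside 4.44% of all probe sets and 7.97% of the bright ones called lower). Cox6c had the smallest p among them. It was 16.72, 16.76, 16.79 and 17.00 in water mice against 16.02, 16.40, 16.35 and 16.43 in voglibose mice. A gap of 0.29 separated the groups, and the difference was -0.52 ± 0.15 (SE; limma adjusted p = 0.652), or 30.1% lower signal. It was -0.42 without voglibose mouse 1 and -0.46 without water mouse 4. Cox7a2 was 14.49, 14.33, 14.46 and 14.78 in water mice against 13.79, 14.21, 14.27 and 13.95 in voglibose mice. These groups were also separate (-0.46 ± 0.16), though by a margin of only 0.06.

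Cox7c had 18.24, 18.20, 18.24 and 18.46 in water mice against 17.81, 18.07, 17.96 and 18.01 in voglibose mice, with no overlap and a difference of -0.32 ± 0.13 (SE). Cox7b had 16.27, 16.26, 16.35 and 16.66 in water mice against 15.68, 16.28, 15.99 and 16.07 in voglibose mice. Here voglibose mouse 2 lay just above the lowest water mouse (-0.38 ± 0.17). In Cox6b1, on the face that binds cytochrome c, the groups were separate by only 0.01 and the difference was -0.25 ± 0.14 (limma adjusted p = 0.711). Cox7a2l was 13.39, 13.44, 13.34 and 13.52 in water mice against 12.48, 13.04, 13.27 and 13.10 in voglibose mice. Water mice were tight (SD 0.08) and voglibose mice spread (SD 0.34), and the difference was -0.45 ± 0.18. Without voglibose mouse 1, the only complex IV member with a p under 0.05 was Cox6c. Without water mouse 4, 2 of the 5 kept it.

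The other general forms did not differ beyond the spread between mice. Cox4i1, which binds ATP as a regulator, averaged 13.40 ± 0.23 with water against 13.43 ± 0.19 with voglibose (SD, n = 4) and differed by 0.03 with an interval from -0.33 to 0.39. Cox8a differed by -0.01 with an interval from -0.31 to 0.29, Cox5a by -0.05 ± 0.17 (SE) and Cox5b by -0.175 ± 0.15. Cox6a1 was 16.30, 16.06, 16.44 and 16.31 in water mice against 16.49, 16.64, 16.20 and 16.20 in voglibose mice (0.105 ± 0.16), with an interval from -0.24 to 0.45. Whether these forms differed from Cox6c was not tested.

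Alternative forms of complex IV subunits are made in particular tissues. Of 7 measured, 5 were higher under voglibose and 2 lower, with a median difference of 0.20. Of the 7, 6 lay below the median of the arrays in both group means: Cox4i2, known from lung, Cox6a2 and Cox8b of heart and skeletal muscle, and Cox6b2, Cox7b2 and Cox8c of testis. Their differences ran from -0.385 in Cox6b2 to 0.39 in Cox8c, with limma adjusted p from 0.703 to 0.983. The smallest p belonged to Cox6a2, at 5.19, 5.23, 4.76 and 4.92 in water mice against 5.39, 5.13, 5.59 and 5.22 in voglibose mice. Cox7a1, the heart and muscle counterpart of Cox7a2, was bright, at 12.83, 12.52, 12.81 and 13.47 in water mice against 12.24, 12.90, 12.46 and 12.72 in voglibose mice. The groups overlapped and differed by -0.33 ± 0.22 (SE), and by -0.14 without water mouse 4. Water mouse 4 had the highest Cox7a1 and the lowest mean of the smooth muscle markers (10.77, other mice 11.84 to 13.75). Water mouse 2 had the highest muscle mean and, with voglibose mice 1 and 3, was among the lowest 3 in Cox7a1.

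In complex V, the ATP synthase, 14 of 17 subunits were lower under voglibose, with a median difference of -0.24. Of these, 6 had an unadjusted p under 0.05 and 7 had groups without overlap. Beside these counts, 4.44% of all probe sets were called lower and 2.53% did not overlap in this direction (7.97% and 4.89% of the bright ones). All 5 small membrane subunits were called, and in all 5 the groups were separate. They surround the proton channel, and several of them join the enzyme into the dimers that bend the cristae. Atp5l (subunit g) was 13.15, 13.20, 13.16 and 13.62 in water mice against 12.10, 12.58, 12.84 and 12.80 in voglibose mice. A gap of 0.31 lay between the groups. The difference was -0.70 ± 0.19 (SE; limma adjusted p = 0.652), the largest of the 48 members, at 38.5% lower signal. It was -0.54 without voglibose mouse 1 and -0.59 without water mouse 4. Atp5md (DAPIT) had the smallest p of the members, which ranked 95 among all probe sets. It stood at 16.83, 16.80, 16.96 and 17.05 in water mice against 15.82, 16.54, 16.40 and 16.32 in voglibose mice, a difference of -0.64 ± 0.17.

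Atp5k (subunit e) was 7.31, 7.48, 7.25 and 8.11 in water mice against 6.56, 7.15, 6.88 and 7.06 in voglibose mice (-0.63 ± 0.21, SE). Water mouse 4 stood well above the other water mice, and without it the difference was -0.43. Atp5j2 (subunit f) was 16.53, 16.53, 16.61 and 16.80 in water mice against 15.75, 16.20, 16.26 and 16.31 in voglibose mice (-0.49 ± 0.16). Atp5mpl, the 6.8 kDa proteolipid, was 15.82, 16.09, 16.08 and 16.10 in water mice against 15.32, 15.69, 15.74 and 15.70 in voglibose mice (-0.41 ± 0.15). In both genes voglibose mouse 1 lay far below the other 3 voglibose mice, which still lay below every water mouse. Over the 5 genes the median difference was -0.63. It was -0.49 without voglibose mouse 1, when all but Atp5mpl were called, -0.43 without water mouse 4, when 5 were called, and -0.32 without both, when 2 were called.

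The peripheral stalk holds the catalytic head still against the rotor. Its subunit Atp5j (F6) was 15.06, 14.98, 14.94 and 15.36 in water mice against 14.30, 14.70, 14.74 and 14.77 in voglibose mice, with no overlap and a difference of -0.46 ± 0.16 (SE; limma adjusted p = 0.652), which was -0.35 and no longer called without voglibose mouse 1. Atp5pb (subunit b) differed by -0.35 ± 0.21, Atp5o (the oligomycin sensitivity protein) by -0.25 ± 0.18 and Atp5h (subunit d) by -0.16 ± 0.14, all with overlap. The stalk median was -0.30, and -0.16 without water mouse 4.

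In the catalytic head the groups overlapped for every subunit. Atp5b, the catalytic beta subunit, had 17.37, 17.14, 17.38 and 17.35 in water mice against 17.27, 17.50, 17.13 and 17.32 in voglibose mice. The group means were 17.31 and 17.30, and the difference was -0.005 with an interval from -0.31 to 0.30. Atp5a1, the alpha subunit, differed by 0.03 with an interval from -0.36 to 0.41, and Atp5d of the central stalk by 0.02 ± 0.17 (SE). Atp5c1 and Atp5e, the gamma and epsilon subunits, differed by -0.24 ± 0.17 and -0.24 ± 0.16, with overlap. The rotor ring is made of c subunits from Atp5g1, Atp5g2 and Atp5g3, which encode the same mature protein behind different targeting sequences. Atp5g2 was 15.51, 15.59, 15.53 and 15.51 in water mice against 15.27, 15.36, 15.46 and 15.45 in voglibose mice. Its groups were separate by 0.05 (-0.15 ± 0.13, limma adjusted p = 0.818). Atp5g1 had 15.27, 15.08, 15.32 and 15.58 in water mice against 15.30, 15.76, 15.20 and 15.32 in voglibose mice (0.08 ± 0.17). Atp5g3 had 14.90, 14.48, 15.02 and 15.27 in water mice against 14.88, 15.18, 14.56 and 14.77 in voglibose mice (-0.07 ± 0.20). In Atp5g1 and Atp5g3 water mouse 2 was lowest and voglibose mouse 2 and water mouse 4 were the highest, as in 3 core subunits of complex III, while Atp5g2 was highest in water mouse 2.

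Within each mouse, the small membrane subunits of complex V were set against its F1 subunits, each as the mean deviation from the 8-mouse mean. The small minus F1 value was 0.11, 0.41, 0.08 and 0.37 in water mice 1 to 4 and -0.66, -0.24, -0.04 and -0.04 in voglibose mice 1 to 4, so the groups did not overlap. The group means differed by -0.49, by -0.35 without voglibose mouse 1 and by -0.31 without both this mouse and water mouse 4. In complex III, the small minus core value was 0.03, 0.45, 0.01 and -0.02 in water mice against -0.19, -0.34, 0.08 and -0.03 in voglibose mice. There the groups overlapped, with a difference of -0.24, and of -0.13 without water mouse 2. No p is given for these scores, since the role groups were chosen with the values known.

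**Figure D3:**
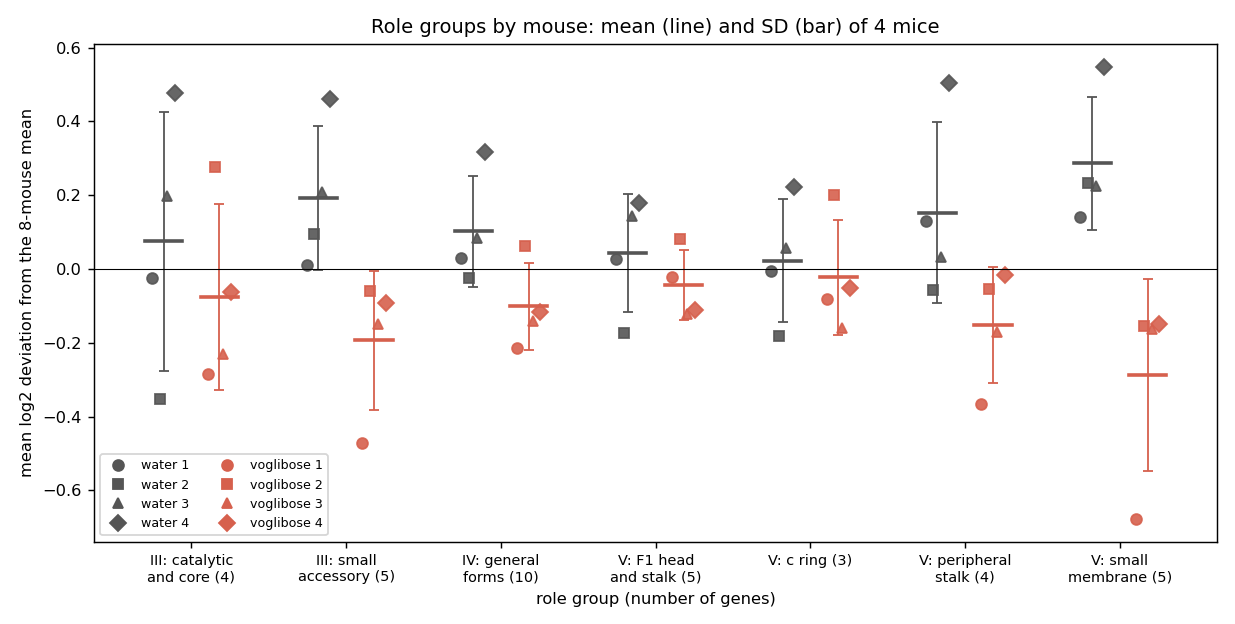
Mean log2 deviation from the 8-mouse mean for role groups of complexes III, IV and V, with each mouse as a point, the group mean as a line and the SD over 4 mice as a bar. The small membrane subunits of complex V are separate between the groups (water 0.14 to 0.55, voglibose -0.68 to -0.15), while F1 subunits overlap. Role groups were drawn up after the values were seen. Each of the 5 small membrane subunits had separate groups, so their mean had to be separate too.

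**Figure D4:**
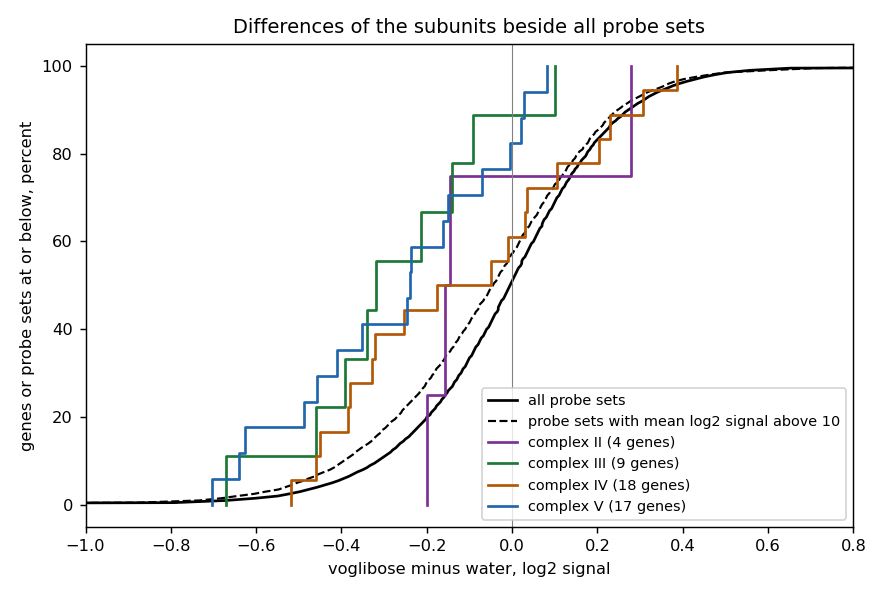
Cumulative share of genes or probe sets at or below a given difference between voglibose and water (log2 signal), for each complex and for all 22206 probe sets or the 4353 with a mean log2 signal above 10. The medians are -0.15 (II), -0.32 (III), -0.11 (IV) and -0.24 (V), against -0.005 over all probe sets.

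Assembly factors of complexes II, III and IV were mostly lower under voglibose, and those of complex V were lower in 2 of 6. In complex IV, 18 of 23 measured assembly factors were lower and 5 were called at an unadjusted p under 0.05 (21.7%, beside 4.44% of all probe sets), with a median of -0.21 (1 called without voglibose mouse 1, and 2 without water mouse 4 or voglibose mouse 2). Fastkd2, an RNA-binding protein of mitochondria, was 9.53, 9.59, 9.60 and 9.71 in water mice against 7.87, 8.75, 9.20 and 9.0 in voglibose mice, a difference of -0.90 ± 0.25 (SE). The groups were separate and voglibose mouse 1 was again the lowest. Cox20, a chaperone for a catalytic subunit, differed by -0.42 ± 0.16. In complex III, 6 of 7 factors were lower and 1 was called (14.3%, beside 4.44% of all probe sets). This was Uqcc2 (-0.50 ± 0.19), followed by Uqcc1 (-0.34 ± 0.19). No complex III factor was called without water mouse 3 or 4 or voglibose mouse 1 or 2. In complex II, 4 of 4 were lower, though Sdhaf1 by only -0.01. Sdhaf1 and Sdhaf4 (-0.16) lay below the array median in all mice. In this list 1 was called (25%, beside 4.44% of all probe sets), Sdhaf2 (-0.43 ± 0.18), which helps attach flavin to Sdha. It was followed by Sdhaf3 (-0.18 ± 0.21). No complex II factor was called without water mouse 2, 3 or 4 or voglibose mouse 1, 2 or 4, so both single calls rest on individual mice.

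Complex V factors were higher in 4 of 6, with a median of 0.08 and a mean of -0.06. None of the 4 was called, and Tmem70 among them lay below the array median in all mice. The only factor called was Tmem242, with lower signal (16.7% of the list, beside 4.44% of all probe sets). It was 8.83, 9.13, 9.29 and 8.80 in water mice against 7.87, 7.99, 8.59 and 8.51 in voglibose mice, with no overlap (-0.77 ± 0.20, SE). Atpaf2, the chaperone of the F1 alpha subunit, differed by 0.25 ± 0.17. Of 13 measured carriers and enzymes that feed or serve the chain, 1 was called lower, Sqor, which passes electrons from sulfide to ubiquinone (-0.63 ± 0.20). This is 7.69%, beside 4.44% of all probe sets and near the 7.97% of the bright ones. In the other direction 1 was called, Dhodh of pyrimidine synthesis (0.42 ± 0.17), where 3.08% of all probe sets were called higher. A gene of this list was called higher when voglibose mouse 2 or 3 was left out, and in no other single leave-out. The median of the list was -0.075. Among 15 measured regulators of mitochondrial genes, 10 were lower and 2 were called (13.3%, beside 4.44% of all probe sets), with a median of -0.11. The count was 1 without water mouse 3 or 4 or voglibose mouse 2 or 4. The 2 called over all mice were the coactivator Pprc1 (-0.73 ± 0.24), whose signal of 4.09 to 5.81 lay below the array median in all mice, and Gabpb1, the beta subunit of GABP (-0.46 ± 0.18). None of these genes passed over all probe sets (limma, smallest adjusted p = 0.652). No probe set was found under the symbols searched for the 13 mitochondrially encoded subunits, so they were not analysed here.

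Other gene families were set beside the subunits. Complex I subunits were lower in 30 of 35 and 13 were called (37.1%, beside 4.44% of all probe sets and 7.97% of the bright ones), with a median of -0.31. Leaving out water mouse 4 gave 7 calls and a median of -0.19, and leaving out voglibose mouse 1 gave 8 calls. Proteasome subunits were lower in 31 of 38 and 13 were called (34.2%, median -0.28), with 9 called without water mouse 4 or voglibose mouse 1 and 18 without voglibose mouse 4. Mitochondrial ribosomal proteins were lower in 65 of 75 and 15 were called (20%, median -0.205). Leaving out water mouse 4 gave 9 calls, and leaving out voglibose mouse 1, 2 or 4 gave 6, 8 and 26 calls. In each of these 3 families voglibose mouse 1 had the lowest mean deviation (-0.42, -0.41 and -0.32) and water mouse 4 the highest (0.48, 0.37 and 0.33). Cytosolic ribosomal proteins were lower in 49 of 62 with 5 called (median -0.19). These 5 are 8.06%, near the 7.97% of bright probe sets called lower. The count was 1 or 2 without water mouse 1, 2 or 3 or voglibose mouse 1, 2 or 4, and rose to 8 with water mouse 4 left out and to 17 with voglibose mouse 3 left out. Leaving out water mouse 2 moved the median to -0.10, voglibose mouse 1 to -0.09 and voglibose mouse 3 to -0.29. Voglibose mouse 1 was again the lowest there (-0.32), and water mouse 2 was the highest (0.30). The part of any shared difference between the arrays in these results was not tested.

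No marker of the cell type lists had an unadjusted p under 0.05. The mean of the distal ileal list ran from 9.05 to 14.48 in water and from 8.94 to 11.82 in voglibose mice, and that of the proximal list from 9.56 to 12.44 and from 10.84 to 12.40. Voglibose mouse 1, lowest in the small subunits, had means of 10.41 for the distal and 11.47 for the proximal list. It was the lowest mouse in the distal markers Slc51b (15.21) and Fgf15 (4.92), but not in the other distal markers. Leukocyte markers ran from 8.39 to 10.02 in water and from 8.79 to 9.76 in voglibose mice, smooth muscle markers from 10.77 to 13.75 and from 11.88 to 12.96, goblet and Paneth markers from 16.35 to 16.82 and from 16.40 to 16.80, and crypt markers from 9.80 to 9.98 and from 9.44 to 10.42. Adipoq and Plin1 of fat cells and Myh1 and Myh6 of striated muscle lay between 3.11 and 5.40 in all mice, below the array median, while Fabp4, also made by endothelium, was 11.57 to 12.69. The other striated muscle markers were Actn2 at 3.99 to 4.87, Mb at 5.18 to 5.90 and Ckm at 6.91 to 7.94. Ckm lay above the array median in every mouse and differed by 0.37 ± 0.18 (SE), with overlap. The part of these cell types in the results was not tested. With water mouse 4 and voglibose mouse 2 left out, which had the lowest Fabp6, 8 of the 48 subunits were called at an unadjusted p under 0.05. Among them were 4 of the 5 small membrane subunits of complex V. The share of all probe sets called and lower was then 2.78%.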

How the data were processed

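RNA from the ileum of 8 mice, 4 per group, was measured on 1 Affymetrix array each, from 250 ng of total RNA. Groups came from the labels, which name no batch. The deposited values are log2 signals per probe set, normalized by the authors. Per the submitters' processing notes, RMA and the Transcriptome Analysis Console were used, without versions, and RMA would hide a change in total RNA. The number of arrays limits the precision.

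All 22206 probe sets were fitted in limma (version 3.58.1, R 4.3.3; lmFit, eBayes, 2-sided, Benjamini-Hochberg over all probe sets, threshold 0.05). "Called" means an unadjusted p under 0.05. Differences are voglibose minus water, with moderated SE and 95% interval. The fit was tested on simulated data with 50 changed genes per fold in each of 10 runs. At an adjusted p under 0.05 it recovered 0.2% of 1.25-fold, 4% of 1.5-fold and 48.2% of 2-fold changes. A subunit that did not pass over all probe sets may thus still have changed by such an amount. Alternatives were a further quantile normalization, median centring, a filter on dim probe sets, trend and robust fitting, no moderation, a replicate block and left-out mice.

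The members and lists were chosen with earlier results of these data known. Genes named by rule were all Sdh genes, the 6 with the smallest p in each of complexes III to V, the isoform sets, the c subunit genes and the 2 with the smallest p in each further list. Other members are named for completeness, and role groups were drawn up after the values were seen.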

Additional observations from a re-analysis of the deposited data

Results flagged for a closer look

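The 48 members and the mean of each complex were examined in both groups of 4 mice, 104 sets of values in all. In 6 of them 1 mouse lay far from the other 3 by Dixon's 95% criterion, which chance meets in about 1 of 20 sets. In water mice these were Atp5b, where mouse 2 was lowest at 17.14 (others 17.35 to 17.38), Atp5l, where mouse 4 was highest at 13.62 (others 13.15 to 13.20), Cox7c, where mouse 4 was highest at 18.46 (others 18.20 to 18.24), and Atp5mpl, where mouse 1 was lowest at 15.82 (others 16.08 to 16.10). In voglibose mice, mouse 1 was lowest in Atp5j at 14.30 (others 14.70 to 14.77) and in Atp5mpl at 15.32 (others 15.69 to 15.74).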

How the results depend on the processing

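No member passed an adjusted p of 0.05 under any setting tried. The count of 15 subunits with an unadjusted p under 0.05 (limma) was 12 after a further quantile normalization, 14 after median centring, 14 with dim probe sets removed, 15 with trend and robust fitting, 14 without moderation and 14 of 47 without Cox7a2l. Current symbols gave the same members, and averaging probe sets changes nothing, since each gene had 1. It ran from 5 to 16 with single mice left out (5 to 15 for those with lower signal), was 8 without water mouse 4 and voglibose mouse 2, and 3 without water mouse 4 and voglibose mouse 1, a setting chosen after seeing the data. The share of all probe sets called and lower was 2.78% and 2.23% in these paired leave-outs. The last setting also gave medians of -0.11 in complex III, -0.025 in complex IV and -0.093 in complex V. With dim probe sets removed, the complex IV median was -0.29, since its dim tissue forms drop out.

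Same-numbered mice did not deviate together (correlations -0.324 to 0.015), and with the replicate number as a block the count was 12.

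Directions turned for members with differences up to about the size of the median over all members, -0.21, among them Uqcrfs1 (-0.21) and Sdhd (-0.20). Quantile normalization gave Atp5b 0.00094, Cox5a 0.0083 and Cox8a 0.056. Without water mouse 4 and voglibose mouse 2, Atp5d was -0.027, Cox8a 0.05 and Cox8b -0.077. Without water mouse 4 and voglibose mouse 1, Atp5b was 0.02, Atp5d -0.05, Atp5g3 0.037, Cox8a 0.09, Cox8b -0.067, Cyc1 0.067, Sdha 0.023, Sdhb 0.11, Sdhd 0.087 and Uqcrfs1 0.027. With single mice left out, the ranges were -0.09 to 0.12 in Atp5a1, -0.07 to 0.053 in Atp5b, -0.071 to 0.11 in Atp5d, -0.039 to 0.17 in Atp5g1, -0.22 to 0.048 in Atp5g3, -0.06 to 0.12 in Cox4i1, -0.16 to 0.043 in Cox5a, -0.054 to 0.069 in Cox8a, -0.078 to 0.15 in Cox8b, -0.25 to 0.041 in Cyc1, -0.395 to 0.092 in Sdha, -0.37 to 0.026 in Sdhd and -0.11 to 0.24 in Uqcrc1. The cause was not tested.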
